A study of Mus musculus with 34 samples.

Results

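The germline genes Dazl, Ddx4, Stk31, Mael, Asz1, Tdrkh, Sycp3, Hormad1, Tex101 and Slc25a31, 10 in all, were examined in 34 chromatin immunoprecipitation sequencing (ChIP-seq) libraries of mouse embryonic stem (ES) cells, for H3K9me3, a histone mark of heterochromatin, and H3K27ac, which marks active enhancers and promoters. The 10 genes were taken by name from 21951 protein-coding genes of the GENCODE M21 annotation of GRCm38. The choice was made with earlier results of these data known, so it is no independent evidence. Every counted region that overlapped a gene body extended by 5 kb on each side was kept. This gave 36 of the 248336 regions in the list that 3 of the 4 count tables share, and 8 of the 96988 regions in the list used for H3K27ac in separate lines.

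The libraries fall into 12 groups. In the series of separate lines, each mark was profiled in 3 C57BL/6J (B6) lines and 3 DBA/2J (D2) lines, called biological replicates in the labels. In the series of repeated libraries, 1 line per genotype was profiled in 2 or 3 technical replicates. These lines were B6, D2, B6-13D2, which carries a D2 segment of chromosome 13 on a B6 background, and D2-13B6, which carries the reciprocal B6 segment on a D2 background. The labels and the series description name different end markers for the D2-13B6 segment. The culture medium of all lines held LIF, serum and both a MEK and a GSK3 inhibitor, and the cells carry no other labelled modification. P-values in the repeated series therefore compare single lines and measure the spread between libraries of a line, not between animals. The series title names regulation in trans, and the congenic lines ask whether chromosome 13 alleles change a mark at genes elsewhere. The B6 line 5-1 and the D2 line 5-5 were used in both series.

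Germline genes of this kind have CpG-rich promoters that ES cells hold silent. The PRC1.6 complex is known to bind there through its MGA and MAX subunits at E-boxes and through E2F6 at E2F sites, and H3K9 methyltransferases and DNA methylation keep many of these promoters closed. Dazl is an RNA-binding regulator of translation, Ddx4 is the Vasa RNA helicase, and Stk31 is a Tudor-domain germ-cell protein. Mael, Asz1 and Tdrkh act in the piRNA pathway, which silences transposons in germ cells. Sycp3 forms the axial element of the synaptonemal complex and Hormad1 is a meiotic chromosome axis protein. Tex101 is a germ-cell surface protein and Slc25a31 is the ADP/ATP carrier of the testis.

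A region was called a start-site region when it came within 500 bp of the 5′ end of a protein-coding transcript. The shared list has 12 of them for the 10 genes, 1 each and a further 1 for Sycp3 and Tex101. Promoter windows from RefSeq (GRCm38.p6), 300 bp long with 250 bp upstream of the start and 50 bp downstream, matched all 10 genes in 12 windows. Both strands were searched for CACGTG, the E-box that MGA and MAX recognise, and for GCGGGAA, an E2F6-type site; the motifs do not overlap each other. CACGTG was found in 6 of the 10 genes (Ddx4, Mael, Sycp3, Stk31, Slc25a31 and Hormad1), and 4 of these (Ddx4, Sycp3, Slc25a31 and Hormad1) also held GCGGGAA. Over all 32851 windows, 7.15% held CACGTG, 4.6% held GCGGGAA and 0.457% held both. Among the 11378 windows with at least 15 CpG, the lowest number in any of the 12, these shares were 11.3%, 10.3% and 1.12%. The windows of Dazl, Tdrkh, Asz1 and Tex101 held neither. The upstream stretches of 5 genes are printed, with CACGTG and GCGGGAA in capitals. Sycp3, Mael, Hormad1 and Dazl are shown because their start-site regions were called in the most comparisons, and Tdrkh because it had the highest H3K9me3 per kb in the D2 lines and no match. They are Hormad1 (chr3:95559427-95559676, plus strand), Sycp3 (chr10:88459337-88459568, plus strand), Mael (chr1:166238748-166238994, minus strand), Dazl (chr17:50293637-50293870, minus strand) and Tdrkh (chr3:94412994-94413243, plus strand).
Hormad1: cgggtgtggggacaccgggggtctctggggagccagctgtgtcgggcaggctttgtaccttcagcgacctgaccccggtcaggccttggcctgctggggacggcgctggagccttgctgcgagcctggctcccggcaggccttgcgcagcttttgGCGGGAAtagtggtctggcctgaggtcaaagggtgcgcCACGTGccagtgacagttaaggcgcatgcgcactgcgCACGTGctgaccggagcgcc
Sycp3: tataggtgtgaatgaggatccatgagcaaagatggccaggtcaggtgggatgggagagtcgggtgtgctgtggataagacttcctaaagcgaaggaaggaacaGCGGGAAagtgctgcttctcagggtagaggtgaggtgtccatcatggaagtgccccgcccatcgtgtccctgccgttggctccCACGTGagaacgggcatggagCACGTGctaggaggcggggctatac
Mael: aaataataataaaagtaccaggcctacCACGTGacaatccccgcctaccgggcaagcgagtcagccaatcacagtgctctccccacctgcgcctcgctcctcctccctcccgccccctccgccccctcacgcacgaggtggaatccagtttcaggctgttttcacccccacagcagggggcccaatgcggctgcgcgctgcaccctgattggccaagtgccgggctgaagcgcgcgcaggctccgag
Dazl: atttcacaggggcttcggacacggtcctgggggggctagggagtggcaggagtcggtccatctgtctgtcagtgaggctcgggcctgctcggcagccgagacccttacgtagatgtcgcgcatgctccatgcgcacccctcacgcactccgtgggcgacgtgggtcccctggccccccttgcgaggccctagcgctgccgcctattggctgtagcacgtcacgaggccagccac
Tdrkh: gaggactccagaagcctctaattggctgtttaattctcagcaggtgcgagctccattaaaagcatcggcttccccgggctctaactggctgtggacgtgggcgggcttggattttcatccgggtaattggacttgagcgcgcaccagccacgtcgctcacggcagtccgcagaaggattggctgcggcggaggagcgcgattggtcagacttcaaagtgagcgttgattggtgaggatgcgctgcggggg
In Sycp3 the E-boxes start 64 and 43 bp upstream of the RefSeq start, in Hormad1 they start 57 and 20 bp upstream, and in Mael the E-box starts 223 bp upstream. The 12 start-site regions held a median of 5.66 CpG per 100 bp, against 0.92 in the 24 other regions of these genes, and 5.12% against 23.3% of their bases were soft-masked as repeats.

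Total counts per library ranged from 1487862 to 2559262 for H3K9me3 and from 8735674 to 18272793 for H3K27ac. In the separate-line H3K9me3 libraries, the 3 B6 totals (1487862 to 1687002) all lay below the 3 D2 totals (1981703 to 2559262). With counts thinned to the lowest library total, an alternative chosen after seeing the data, again 10 of the germline regions were called between the strains, 35.4% of all regions were called, and the 10 start-site regions ran from 0.79 (Dazl) to 1.57 (Hormad1) on the log2 scale. Replicate 1 of D2-13B6 stood apart in both marks, with a chi-square per degree of freedom of 2.46 and 2.47 against its replicates in H3K9me3 and 2.81 and 2.79 in H3K27ac, where the other repeated pairs gave 0.905 to 1.55. In the repeated H3K27ac series, 1 pair of libraries in each genotype had differences smaller than sampling noise and was counted as 1 sample, which leaves n = 2 per genotype. The pairs of B6, B6-13D2 and D2 that were not summed gave 1.005 to 1.027. The samples of these lines thus differ by little more than sampling noise. As a check of the labelled cell type, start-site regions of 10 ES cell markers lay at a median percentile of 99 of H3K27ac in separate lines and 98.1 in repeated libraries. Markers of primitive endoderm lay at 15.4 and 17.6, of mesoderm at 21.9 and 17.2, of neural cells at 27 and 19.7, and of fibroblasts at 9.14 and 34.9, while those of primordial germ cells lay at 60.8 and 54.4.

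The germline genes carried H3K9me3 at their starts in every group. Levels are in CPM, counts divided by the TMM-scaled total of the regions that passed the filter on low counts, and genes are compared only per kb of region. Among all start-site regions of the genome, the 12 germline regions had a median percentile of 98.6 of H3K9me3 per kb in separate lines (range 84.9 to 99.5) and of 98.6 in repeated libraries (92.7 to 99.5). Their median level was 20.6 and 20 CPM per kb. For 44 other germline genes from a list, the median percentiles were 94.6 and 98.2, against 30.8 and 34 for ES cell markers; genes of the PRC1.6 subunits lay at 24 in separate lines. H3K27ac was low at the same regions, with a median percentile of 14.4 over the 5 germline regions of the separate-line list (1.28 to 34.9) and 16.2 over 12 in repeated libraries (1.21 to 54.2). Hormad1 and Stk31 had the highest H3K27ac of the 12, 4.72 and 4.53 CPM per kb, while Slc25a31 and Ddx4 had the lowest, 0.472 and 0.578 CPM per kb.

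Over the 6 separate lines together, mean H3K9me3 per kb was highest at Tdrkh (33.1), followed by Slc25a31 (29.8), Tex101 (27.9), Ddx4 (25.4) and Asz1 (23). The remaining genes lay between 16.1 (Stk31) and 20.8 (Sycp3), with Dazl at 16.2, Mael at 20.1 and Hormad1 at 20.3. This order differs by strain: in the B6 lines Slc25a31 (22.1) was above Tdrkh (21.05), and in the D2 lines Tdrkh (45.08) was above Slc25a31 (37.48). The 4 highest regions away from the starts were introns of Stk31 (65.4 and 30.5) and Asz1 (38), and a narrow region near the start of Mael (41.5). In the plot of H3K9me3 against distance these are the high points off the start, and much of 3 of the 4 is soft-masked (78.5% in Stk31, 79.1% in Asz1 and 53.6% in Mael).

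**Figure D1:**
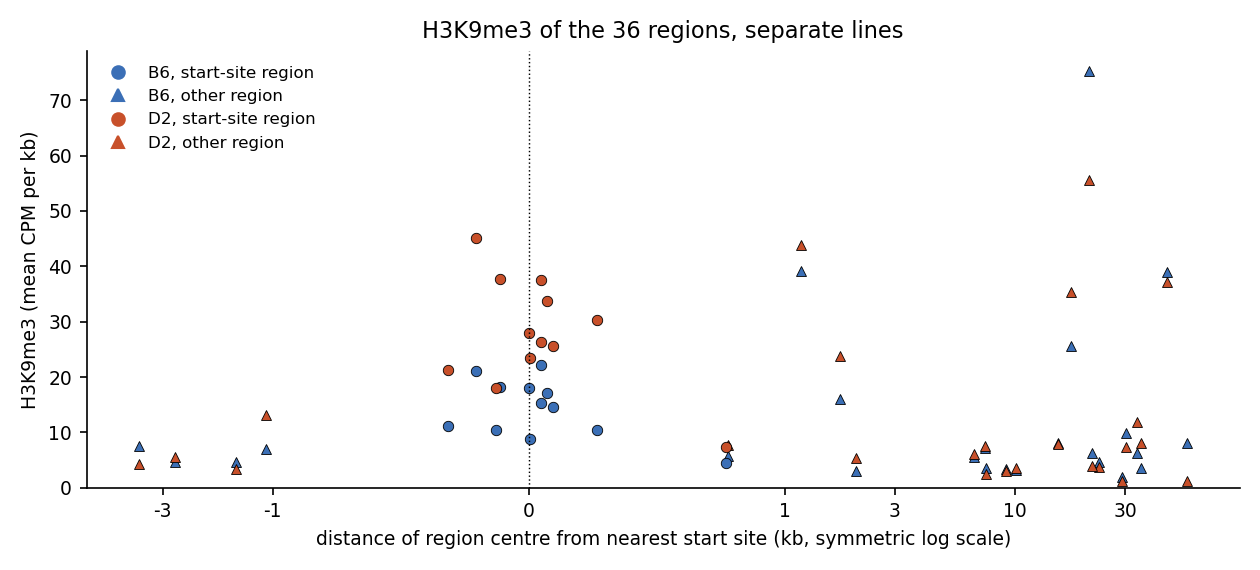
H3K9me3 of the 36 regions (mean CPM per kb over 3 B6 or 3 D2 lines) against the distance of the region centre from the nearest start site of its gene, in kb on a symmetric log scale. Circles are start-site regions and triangles other regions. At the starts the D2 means lie above the B6 means, while the highest region, in an intron of Stk31, is higher in B6.

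The strain comparison in separate lines asks where D2 and B6 cells differ. In these bulk samples, fewer cells with a mark and less of it per cell cannot be told apart. H3K9me3 was higher in D2 at the start-site regions of 9 of the 10 germline genes, by 0.77 to 1.55 on the log2 scale, and the remaining gene, Asz1, did not pass the test. Of the 12 start-site regions 10 were tested, and in these the 3 D2 lines lay above the 3 B6 lines. The filter on low counts asks for 3 lines at a minimum level, which the regions of Stk31, Tex101, Ddx4 and Asz1 reached through the D2 lines, with 1, 1, 2 and 2 of the B6 lines there, so their counts are no support for a direction. Of the other 6, which the B6 lines alone would have passed, 6 were called higher, against 39.5% of all start-site regions of that kind called and 11.3% called higher, a subset chosen after seeing the data. With no filter, 6 of the 12 start-site regions were called, all higher, against 6.2% of all regions called. In the 2 that did not pass the filter, the second Sycp3 and the second Tex101 region, the lines overlapped. Of the 36 regions, 15 passed the filter, and 10 of these were called at an adjusted p under 0.05, all higher in D2. Over all regions tested, 34.7% were called and 17.3% were called higher; over all start-site regions, 33.9% were called, 22.7% higher and 11.3% lower. Every D2 line was above every B6 line in 28.1% of all start-site regions. The median log2 fold change was 0.96 over the 10 germline start-site regions and 0.214 over all start-site regions.

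Among the RNA regulators, H3K9me3 at the Dazl start (chr17:50292439-50293977, 1539 bp) was 22.2, 9.79 and 19.5 CPM in the 3 B6 lines and 25.5, 43.7 and 29.3 CPM in the 3 D2 lines. At the Ddx4 start (chr13:112651773-112652690) it was 24.3, 8.7 and 14.4 CPM in B6 and 28.8, 32.4 and 31.6 CPM in D2. B6 replicate 2 was the lowest line at both genes, and the groups did not overlap. The log2 fold change was 0.95 at Dazl (SE 0.27, adjusted p = 0.00476, edgeR with Benjamini-Hochberg adjustment, as for all adjusted p below) and 0.97 at Ddx4 (SE 0.27, adjusted p = 0.00411). Without B6 replicate 2 neither passed, at 0.64 for Dazl (adjusted p = 0.0891) and 0.64 for Ddx4 (adjusted p = 0.0914), and Dazl also did not pass without D2 replicate 2 (0.71, adjusted p = 0.0733) or under DESeq2 (adjusted p = 0.0502). At the Stk31 start (chr6:49395241-49396036) the B6 lines had 3.17, 5.44 and 12.3 CPM and the D2 lines 13.2, 24.9 and 18 CPM. The lowest D2 line was close to the highest B6 line, and the log2 fold change was 1.43 (SE 0.37, adjusted p = 0.00218 by edgeR).

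Among the piRNA pathway genes, Tdrkh had the clearest separation. Its start (chr3:94412398-94413731, overlapping an untranslated exon) had 30.6, 22.8 and 30.8 CPM in B6 and 55.1, 59.9 and 65.4 CPM in D2, a log2 fold change of 1.09 (SE 0.20, adjusted p = 2.91e-05, edgeR). At the Mael start (chr1:166238168-166239130, overlapping a coding exon) the lines had 16.9, 13.1 and 12.3 CPM in B6 and 24.7, 24.3 and 24.8 CPM in D2. The 3 D2 lines of Mael were nearly equal and above B6, and the log2 fold change was 0.80 (SE 0.27, adjusted p = 0.0165, edgeR). At the Asz1 start (chr6:18108773-18109338, 566 bp) the values were 11.6, 10.9 and 8.2 CPM in B6 and 17.3, 14.3 and 15.8 CPM in D2. The groups of Asz1 did not overlap either, but the change of 0.61 (SE 0.32) had an adjusted p of 0.138 by edgeR.

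Among the meiotic axis genes, Hormad1 showed the largest change of the 10 start-site regions. Its start (chr3:95559216-95560674), which spans the printed stretch, had 18, 15.2 and 12.3 CPM in B6 and 37, 51.8 and 43.6 CPM in D2. The lowest D2 line was well above the highest B6 line, and the log2 fold change was 1.55 (SE 0.24, adjusted p = 2.16e-06, edgeR). At the first Sycp3 region (chr10:88459223-88460008) the B6 lines were nearly equal at 12.7, 12 and 11.3 CPM and the D2 lines had 16.4, 22.5 and 23.3 CPM. The groups of Sycp3 were separate, with a log2 fold change of 0.80 (SE 0.29, adjusted p = 0.028, edgeR). The call was lost in 8 of 13 alternative settings, among them DESeq2 (adjusted p = 0.169), no filter (0.119), TMM over start-site regions (0.144) and each B6 line or D2 replicate 2 or 3 left out. The second Sycp3 region, in an intron at chr10:88460044-88460823, did not pass the filter.

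The surface protein gene Tex101 had 8.45, 7.61 and 12.3 CPM in B6 and 18.9, 15 and 24.8 CPM in D2 at its tested start (chr7:24671905-24672424), a log2 fold change of 1.02 (SE 0.32, adjusted p = 0.0117, edgeR). Slc25a31 (chr3:40708411-40709395) had 21.1, 19.6 and 24.6 CPM in B6 and 32.9, 45.5 and 32.3 CPM in D2, a log2 fold change of 0.77 (SE 0.23, adjusted p = 0.00772, edgeR). Both genes had every D2 line above every B6 line. Of the 5 regions tested away from starts, the only one called was between the Tex101 starts (chr7:24674153-24675730), with 0.59 (SE 0.23, adjusted p = 0.0394, edgeR), a call lost in 10 of 13 alternative settings, DESeq2 among them (adjusted p = 0.192). The Stk31 intron region at chr6:49416004-49417055 went the other way, at 91.9, 69.6 and 75.9 CPM in B6 and 46.1, 59.3 and 69.9 CPM in D2. The highest D2 line overlapped the lowest B6 line there, and the change of -0.43 had an adjusted p of 0.0553 by edgeR.

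**Figure D2:**
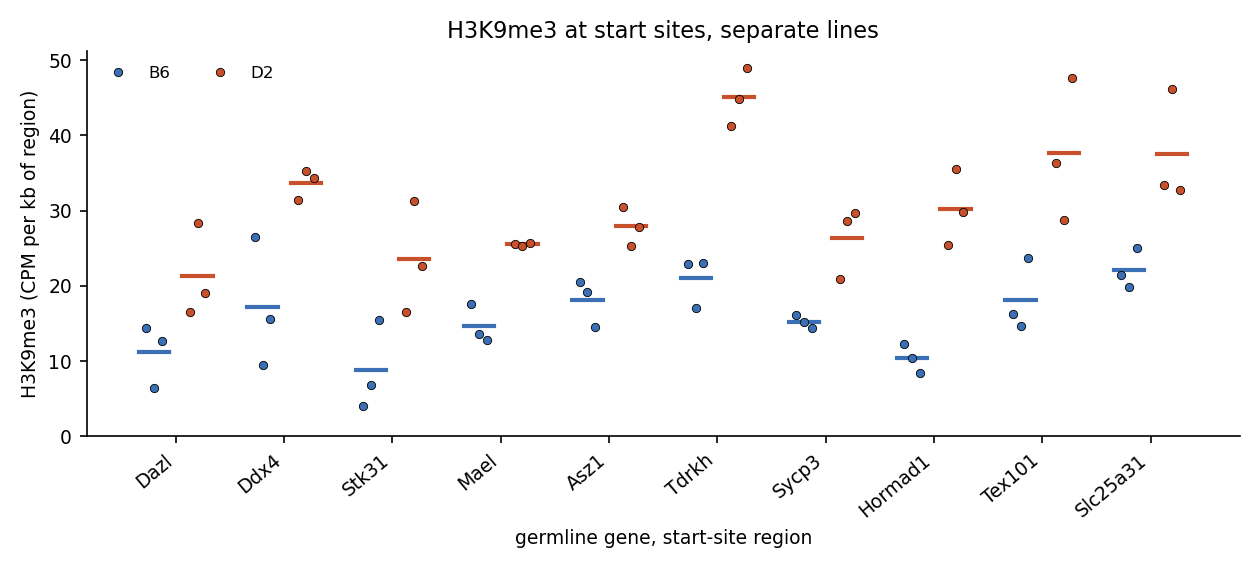
H3K9me3 at the 10 tested start-site regions in separate lines, in CPM per kb of region. Points are the 3 B6 and 3 D2 lines and bars their means. Every D2 point of a gene lies above every B6 point of that gene.

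The number of calls moved with the scaling and with single lines. With TMM scaling computed over start-site regions only, an alternative chosen after seeing the data that moved the median of all regions to -0.197, 6 of the regions were called, 5 higher and 1 lower, and 5 of these were start-site regions. Without B6 replicate 2, 4 regions were called, 3 higher and 1 lower, and without D2 replicate 2, 6 were called; DESeq2 called 4. Over all regions the same settings called 34.3%, 26.3%, 28.4% and 21.5%, so that 4 of 15 is near the background. With thinned counts, Asz1 passed the test (0.86, adjusted p = 0.0451, edgeR) and the region between the Tex101 starts did not (0.58, adjusted p = 0.0548). Tdrkh and Hormad1 passed the threshold with each of the 6 lines left out in turn. Of 13 alternative settings, Tdrkh and Hormad1 passed in 13, Dazl in 10, Mael and Slc25a31 in 8 and Sycp3 in 5. The filter let Ddx4, Stk31 and the Tex101 start in through D2, so their passes are no support for a direction. Ddx4 passed in 12 of 13 settings, Stk31 in 12 of 12 and the Tex101 start in 7 of 12. The Tex101 call was lost under DESeq2 (adjusted p = 0.087) and with TMM over start-site regions (adjusted p = 0.0509, edgeR). It was also lost without B6 replicate 1 or 2 or D2 replicate 3. With no filter Stk31 was at 1.49 (adjusted p = 0.00227, edgeR) and the Tex101 start at 1.08 (adjusted p = 0.0366). When counts were summed over all regions of a gene, 6 of 10 genes were called, all higher in D2, against 19.8% of all gene sums. Those were Dazl (0.86), Ddx4 (0.80), Hormad1 (1.25), Slc25a31 (0.69), Tdrkh (0.99) and Tex101 (0.59).

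Other germline genes from the list, which is no independent evidence since it was chosen with results of these data known, had 17 of 30 tested start-site regions higher in D2 and 0 lower, with a median of 0.894. The largest were Hormad2 (1.57), Tdrd12 (1.36), Mei1 (1.30), Rnf212 (1.29) and Zcwpw1 (1.29). Of the PRC1.6 subunit genes, 2 of 3 tested regions were higher and 0 lower. Among the markers of other cell types, 2 of 4 tested regions of neural markers were higher in D2 (median 0.857) and 1 of 4 of primordial germ cell markers (median 0.702). H3K9me3 summed over each list was 45.1 to 50 CPM in B6 and 51.9 to 97.9 CPM in D2 for neural markers, and 27.7 to 41.2 and 48.1 to 65 CPM for primordial germ cell markers, with no region at 0. Their part in the result was not tested.

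In the repeated libraries, the D2 line 5-5 was again compared with the B6 line 5-1. Here H3K9me3 was called higher in D2 only at Dazl, 1 of 17 tested regions and 1 of 12 start-site regions, against 11.3% of all regions (4.58% higher) and 6.55% of start-site regions (4.65% higher). Of the 12 start-site regions, 11 had a positive difference, with a median of 0.354 against 0.224 over all start-site regions. In 6 of the 12, every D2 library was above every B6 library, which held for 25.5% of all start-site regions. Dazl had 21.8, 14.4 and 17.7 CPM in B6 and 37.6 and 34.9 CPM in D2, and its log2 fold change was 1.00 (SE 0.27, adjusted p = 0.00574, edgeR). The libraries of Dazl did not overlap. The call was lost when B6 replicate 2 or either D2 library was left out, under DESeq2 (adjusted p = 0.0902), with no filter (adjusted p = 0.0548, edgeR) and with TMM over start-site regions (0.79, adjusted p = 0.0643). With a D2 library left out, the 1 that remains is assumed to vary like the other lines.

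The other starts did not pass the test. Hormad1 had 24, 21.3 and 23.6 CPM in B6 and 30.4 and 29.5 CPM in D2, a difference of 0.38 (SE 0.26, adjusted p = 0.394, edgeR). Its libraries did not overlap, although the difference did not pass the test. Tdrkh had 34.9, 51 and 46.4 CPM in B6 and 54.6 and 43.4 CPM in D2, a difference of 0.15 (SE 0.22, adjusted p = 0.736, edgeR). Ddx4 had 23.2, 16.7 and 28.7 CPM in B6 and 26.9 and 17.1 CPM in D2, a difference of -0.08 (SE 0.28, adjusted p = 0.895, edgeR). At Tdrkh and Ddx4 the B6 and D2 libraries overlapped. The remaining differences lay between 0.02 (Tex101, the tested region of separate lines) and 1.21 (the second Tex101 region, chr7:24676601-24677009, adjusted p = 0.153 by edgeR), with Stk31 at 0.49, Asz1 at 0.44, Slc25a31 at 0.33, Mael at 0.28 and Sycp3 at 0.11 and 0.38. Beside these, 1 of 5 regions of neural markers (median 0.338) and 1 of 5 of primordial germ cell markers (median -0.0557) were higher. H3K9me3 summed to 98.1 to 107 CPM in B6 and 117 to 149 CPM in D2 over the neural list, and to 60.4 to 76.8 and 71.6 to 80.6 CPM over the primordial germ cell list, with no region at 0, and their part in the result was not tested. Of the other germline genes, 6 of 44 tested regions were higher and 0 lower, led by Dmc1 (1.29), Taf7l (1.27), Tdrd12 (1.26), Meioc (1.16) and Smc1b (0.92).

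**Figure D3:**
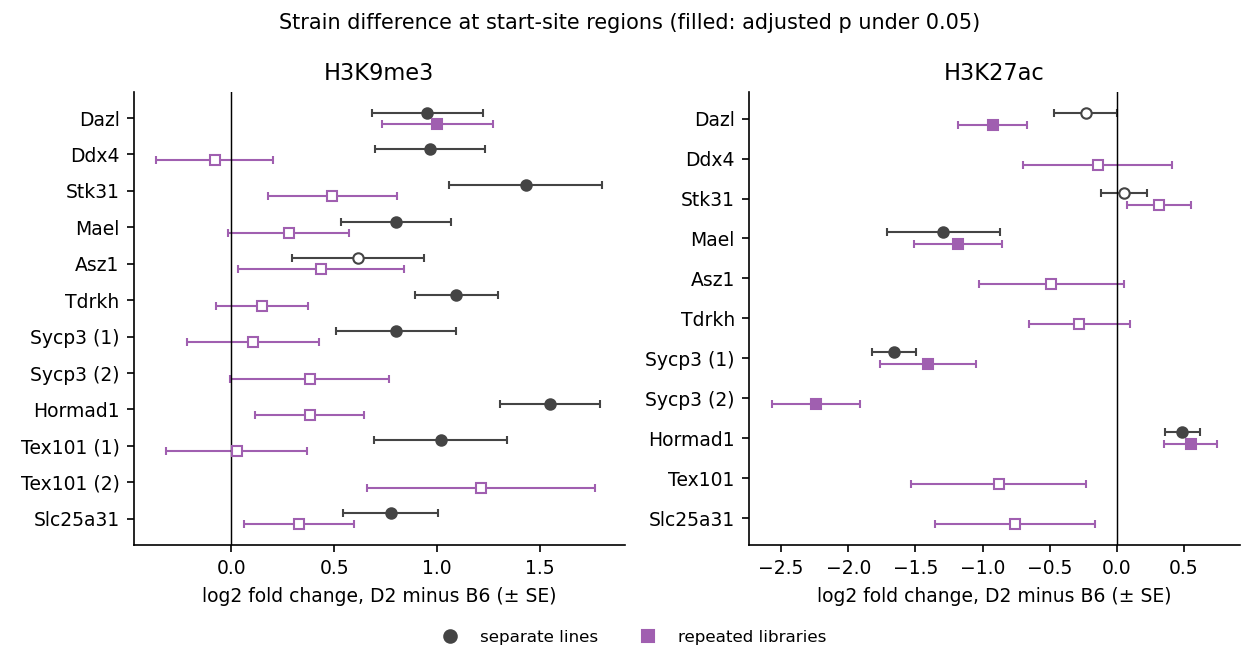
Strain difference, D2 minus B6, on the log2 scale with its standard error, for H3K9me3 (left) and H3K27ac (right) in separate lines (circles) and repeated libraries (squares); filled symbols have an adjusted p under 0.05. The separate-line H3K27ac regions come from another region list, and the 1 Sycp3 region there covers both Sycp3 regions of the shared list. H3K9me3 differences are mostly larger in separate lines, and H3K27ac of Sycp3 and Mael is lower in D2 in both series.

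The lines B6 5-1 and D2 5-5 can be set side by side across series. In each of the 12 start-site regions the difference between these lines was larger in the separate-line libraries (median 0.988) than in the repeated ones (median 0.342). Hormad1 had 12.3 and 51.8 CPM in B6 5-1 and D2 5-5 of the separate series, a log2 difference of 2.07, and 0.384 between the same lines in the repeated series. Dazl differed by 1.16 and 1.01, Tdrkh by 0.961 and 0.153, and Ddx4 by 1.18 and -0.0614. A fit over 11 libraries with a term for the series, so that the difference in strain difference itself was tested, called 770 of 79960 regions (0.963%) and 0 of the 12 start-site regions. Of the 12, 4 had an unadjusted p under 0.05, against 11.9% of all regions, and 10 were larger in separate lines. Hormad1 was larger by 1.11 (SE 0.37, adjusted p = 0.129, edgeR), Tdrkh by 0.89 (SE 0.31, adjusted p = 0.159) and Ddx4 by 0.99 (adjusted p = 0.251, edgeR).

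The congenic lines ask what a chromosome 13 segment does. At H3K9me3, no germline region was called between B6-13D2 and B6 (0 of 17, against 1.69% of all regions and 0.896% of start-site regions; 1 start-site region had an unadjusted p under 0.05, against 7.9% of all start-site regions, and DESeq2 called 0). Differences in the 12 start-site regions ran from -0.45 to 0.62, with 6 positive and 6 negative, and in 2 every B6-13D2 library was above every B6 library, against 8.48% of all start-site regions. The exception at the unadjusted threshold was Mael, at 18.9, 18.3 and 18.4 CPM in B6 and 36.3 and 21 CPM in B6-13D2, a difference of 0.62 (SE 0.27, adjusted p = 0.394, edgeR). The first of the B6-13D2 libraries of Mael was far above the second.

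Between D2 and D2-13B6, no germline region was called at H3K9me3 (0 of 17, against 2.2% of all regions and 0.982% of start-site regions; 1 start-site region had an unadjusted p under 0.05, against 9.64% of all start-site regions, and DESeq2 called 0). All 12 start-site differences were positive, from 0.01 to 0.74, with a median of 0.385 against -0.0764 over all start-site regions. Every D2 library was above every D2-13B6 library in 3 of the 12, which held for 9.54% of all start-site regions. Dazl had 37.6 and 34.9 CPM in D2 and 36, 11.9 and 26.7 CPM in D2-13B6, a difference of 0.57 (SE 0.26, adjusted p = 0.368, edgeR). The library of D2-13B6 that stood apart, replicate 1, was the high one at Dazl, and also at Tdrkh (56.7 against 29.9 and 33 CPM) and Slc25a31 (49.5 against 17.2 and 22.5 CPM). Without it, the 12 differences ran from 0.10 to 0.97 with a median of 0.597, and 1 was called, Dazl at 0.86 (adjusted p = 0.044, edgeR), against 3.14% of all regions. Tdrkh then had 0.60 (adjusted p = 0.139) and Mael 0.76 (adjusted p = 0.209, edgeR).

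Ddx4 is the only one of the 10 genes on chromosome 13. It had 26.9 and 17.1 CPM in D2 and 15.3, 15.7 and 12.6 CPM in D2-13B6, a difference of 0.58 (SE 0.31, adjusted p = 0.487, edgeR). Every D2 library of Ddx4 was above every D2-13B6 library. Regions of chromosome 13 (those starting between 65 and 70 Mb left out) had a median difference of 0.22 in this comparison, against -0.0234 on other chromosomes. The part of the chromosome in the Ddx4 value, and whether Ddx4 lies inside the segment, was not tested. The interaction, the effect of the segment on a B6 background minus that on a D2 background, was called at 0 of 17 germline regions, against 0.389% of all regions and 0.0854% of start-site regions, and at 0 by DESeq2. The only start-site region with an unadjusted p under 0.05 was the second Sycp3 region, at -1.18 (SE 0.58, adjusted p = 0.658, edgeR).

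**Figure D4:**
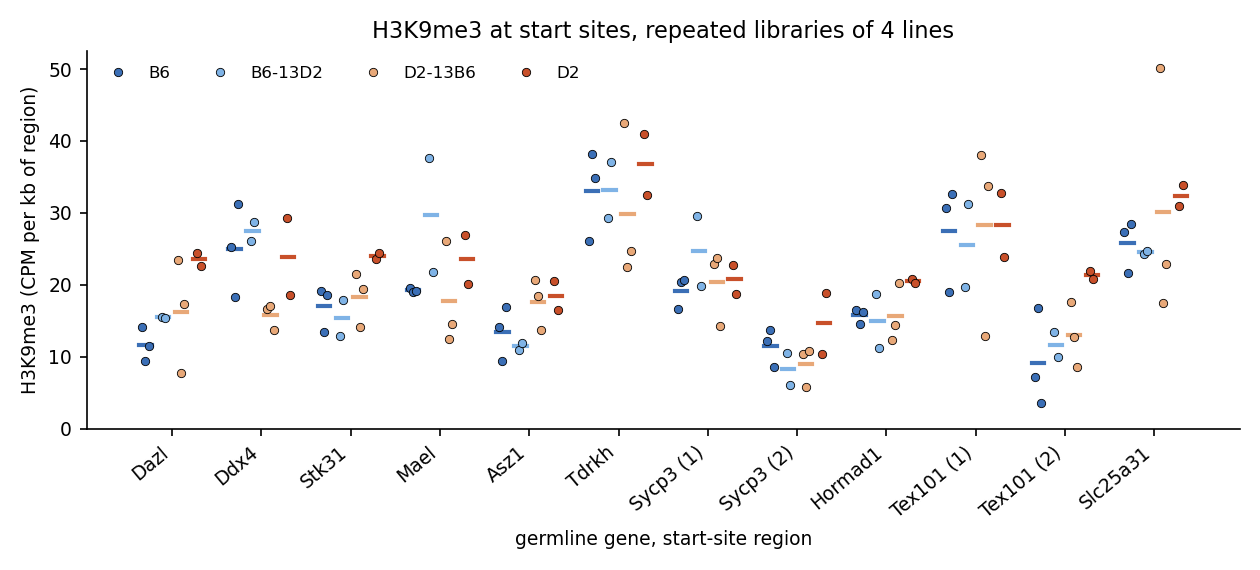
H3K9me3 at the 12 start-site regions in repeated libraries of 4 lines, in CPM per kb of region. Points are libraries and bars their means over 2 or 3 libraries. At Dazl the D2 points lie above the B6 points, and at Tdrkh and Slc25a31 1 of the D2-13B6 libraries lies far above the others.

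H3K27ac differed between the strains at some germline starts, in both directions. In separate lines Sycp3 and Mael were lower in D2 and Hormad1 was higher. Of the 8 regions, all passed the filter and 4 were called, 2 higher and 2 lower, against 49.3% of all regions, of which 24.3% were higher and 25% lower; 3 of 5 start-site regions were called, against 48.9% of all start-site regions, 38.1% higher and 10.8% lower. The share called is near the background. Beside these, 2 of 4 regions of neural markers were higher and 1 lower (median 0.213), 1 of 12 of ES cell markers higher and 2 lower (median -0.0118), and 1 of 6 of primitive endoderm and 1 of 3 of mesoderm markers higher. H3K27ac summed over the neural list was 83.2 to 88.4 CPM in B6 and 68.9 to 71.4 CPM in D2, and over the ES cell list 1990 to 2230 and 2010 to 2110 CPM, with no region at 0, and their part in the result was not tested. Every D2 line was below every B6 line in 2 start-site regions and above in 1, against 12.9% and 46.6% of all start-site regions. As gene sums, 3 of 6 genes were called, against 51.6% of gene sums: Sycp3 (-1.76) and Mael (-1.40) were lower and Tex101 (0.87) was higher.

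The axis gene Sycp3 had the largest H3K27ac change. Its region in this list (chr10:88459105-88461036), which covers the printed E-boxes, had 7.13, 7.93 and 6.52 CPM in B6 lines and 1.99, 2.54 and 2.25 CPM in D2 lines. The groups were far apart, with a log2 fold change of -1.66 (SE 0.16, adjusted p = 1.17e-12, edgeR). Hormad1 (chr3:95558840-95561109) had 7.08, 8 and 5.19 CPM in B6 and 9.7, 9.81 and 8.99 CPM in D2, a change of 0.49 (SE 0.13, adjusted p = 0.00141, edgeR). At Hormad1 every D2 line was above every B6 line, so that both marks were higher in D2 at this gene. At Sycp3 H3K27ac was lower, beside an H3K9me3 difference of 0.80 that passed in 5 of 13 alternative settings. The piRNA gene Mael, in a region just upstream of its start (chr1:166239157-166239527, 371 bp), had 1.14, 0.756 and 1.46 CPM in B6 and 0.706, 0.331 and 0.346 CPM in D2. The highest D2 line of Mael was close to the lowest B6 line, and the change was -1.29 (SE 0.42, adjusted p = 0.00941, edgeR). The Mael region passed the filter through the B6 lines, and with no filter its change was -1.29 (adjusted p = 0.0114, edgeR). It did not pass without D2 replicate 2 (-1.09, adjusted p = 0.0651) or D2 replicate 3 (-1.12, adjusted p = 0.0602).

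Dazl (chr17:50293067-50293810) had 1.94, 3.08 and 1.84 CPM in B6 and 2.18, 1.71 and 1.96 CPM in D2, with overlapping lines and a change of -0.23 (adjusted p = 0.423, edgeR). Stk31 (chr6:49395314-49396383) had 3.6, 3.78 and 3.16 CPM in B6 and 3.92, 3.25 and 3.8 CPM in D2, which also overlapped, with a change of 0.05 (adjusted p = 0.814, edgeR). The region between the Tex101 starts (chr7:24674135-24675562) rose in D2, from 2.28, 1.7 and 2.6 CPM in B6 to 3.47, 5.18 and 4.15 CPM in D2, a log2 fold change of 0.97 (SE 0.19, adjusted p = 3.44e-05, edgeR). Its lines did not overlap. The H3K9me3 difference there, 0.59, passed in 3 of 13 alternative settings. The other 5 members of the 10 genes (Ddx4, Asz1, Tdrkh, Slc25a31 and, at its starts, Tex101) had no start-site region in this list. Of the other germline genes, 5 regions were higher and 5 lower among 23, with Stra8 at -0.92, Tdrd5 at 0.69, Tdrd12 at -0.54, Tex14 at 0.47 and Pld6 at 0.41. Of PRC1.6 subunit genes, 7 of 18 regions were higher and 2 lower.

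**Figure D5:**
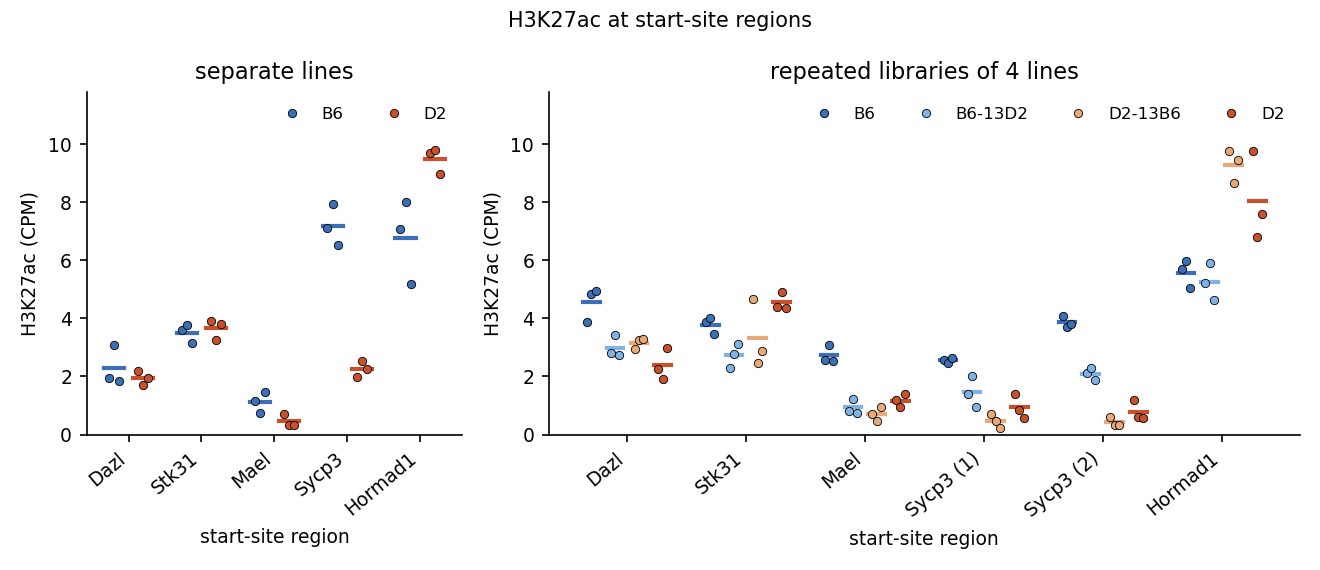
H3K27ac at start-site regions of 5 germline genes in separate lines (left) and repeated libraries (right), in CPM. Points are libraries and bars their means. Sycp3 and Mael are lower in D2 than in B6 in both panels, Hormad1 is higher, and in B6-13D2 the libraries of Mael and Sycp3 lie below those of B6. The panels used different antibodies and region lists, so levels are not compared between them.

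In repeated libraries, the H3K27ac difference between D2 and B6 was called at 9 of 26 tested germline regions, 5 higher and 4 lower, against 28.1% of all regions (14.7% higher and 13.4% lower). Of 11 tested start-site regions, 5 were called, 1 higher and 4 lower, against 46.7% of all start-site regions, of which 41.6% were higher and 5.04% lower. With TMM over start-site regions, 7 regions were called, 1 higher and 6 lower, and Hormad1 was no longer among the start-site calls, which were 0 higher and 4 lower; library totals gave 4 higher and 4 lower. DESeq2 called 3 of the regions, against 15.9% of all regions, and 1 of them at a start, the second Sycp3 region. Beside these, H3K27ac was higher in D2 at 4 of 5 regions of fibroblast markers (median 1.4) and 5 of 13 of ES cell markers (median 0.235), at 2 of 5 of neural markers with 1 lower (median 0.204), 1 of 5 of primitive endoderm markers (median 0.335) and 1 of 6 of primordial germ cell markers (median 0.203). Its sum over the fibroblast list was 9.9 to 12.1 CPM in B6 and 27.3 to 32.4 CPM in D2, and over the ES cell list 1170 to 1280 and 1460 to 1530 CPM, with no region at 0. Their part in the result was not tested. Of the 11 differences 9 were negative, where the median of all start-site regions was 0.384. Every D2 library was below every B6 library in 6 of the 11, which held for 9.7% of all start-site regions, and above in 2, against 55.2%. Which line carried a region past the filter on low counts was followed only for called regions. Regions of few counts, such as Slc25a31, can pass through the line where they are high, so these tallies are no support for a direction. As gene sums, 4 of 10 genes were called, against 43.4% of gene sums: Sycp3 (-1.70), Mael (-1.22) and Dazl (-1.16) were lower and Stk31 (0.45) was higher, with 0 genes higher under TMM over start-site regions. H3K27ac in the separate and the repeated series was precipitated with different antibodies, so only the differences within each series are compared.

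The second Sycp3 region had 4.09, 3.7 and 3.8 CPM in B6 and 1.18, 0.598 and 0.575 CPM in D2, a change of -2.24 (SE 0.33, adjusted p = 6.17e-07, edgeR). The first had 2.58, 2.47 and 2.65 CPM in B6 and 1.39, 0.838 and 0.575 CPM in D2, a change of -1.40 (SE 0.36, adjusted p = 0.00217, edgeR). Libraries of the lines did not overlap in either. The second region passed the filter through the B6 and B6-13D2 samples, with 1 of 2 D2 samples at the minimum level. Its call alone is therefore no support for a direction. Over 19 alternative settings, no filter among them, its change ran from -2.71 to -2.01. Mael had 2.58, 3.08 and 2.53 CPM in B6 and 1.18, 0.957 and 1.38 CPM in D2, a change of -1.18 (SE 0.33, adjusted p = 0.00481, edgeR). Dazl had 3.88, 4.83 and 4.95 CPM in B6 and 2.25, 1.91 and 2.99 CPM in D2, a change of -0.93 (SE 0.26, adjusted p = 0.00465, edgeR). Mael and Dazl were also separate between the lines. Hormad1 had 5.7, 5.96 and 5.07 CPM in B6 and 9.75, 6.82 and 7.59 CPM in D2, a change of 0.55 (SE 0.20, adjusted p = 0.0305, edgeR), again higher in every D2 library. Its call was lost with library totals (0.40, adjusted p = 0.107, edgeR) and with TMM over start-site regions (0.12, adjusted p = 0.629, edgeR). Without B6 replicate 3 or without D2 replicate 2, each of which leaves 1 summed sample of the line, assumed to vary like the others, 3 of the start-site regions were called, against 17.4% and 19% of all regions. Under DESeq2 the adjusted p was 0.00035 at the second Sycp3 region, 0.0622 at the first, 0.111 at Mael, 0.0574 at Dazl and 0.122 at Hormad1.

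Away from the starts, 4 of 15 tested regions were called (26.7%, near the 28.1% of all regions), all higher in D2, and 3 of these are introns of Stk31. The Stk31 introns (chr6:49410818-49411214, chr6:49412685-49413620 and chr6:49416004-49417055) had changes of 1.02, 0.63 and 0.74 (adjusted p = 0.00146, 0.00694 and 0.00367, edgeR). In the last of these the B6 libraries had 12.8, 14.5 and 12.6 CPM and the D2 libraries 24.3, 19.7 and 21.6 CPM. The region between the Tex101 starts had 3.23, 3.5 and 2.99 CPM in B6 and 8.04, 5.86 and 7.36 CPM in D2, a change of 1.14 (adjusted p = 0.000149, edgeR). Libraries did not overlap in these. With TMM over start-site regions the 3 introns did not pass (0.59, 0.21 and 0.31, adjusted p = 0.0574, 0.337 and 0.195, edgeR), while the Tex101 region did (0.71, adjusted p = 0.0159). Under DESeq2 the first intron (adjusted p = 0.0342) and the Tex101 region (0.00539) passed and the other introns did not (0.172 and 0.25). Of the other germline genes, 6 of 43 regions were higher and 8 lower, led by Tdrd9 (-2.17), Gtsf1 (-1.75), Stra8 (-1.49), Hormad2 (-1.47) and Tdrd12 (-1.27); of PRC1.6 subunit genes, 10 of 15 were higher and 0 lower.

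H3K27ac at Mael and Sycp3, which do not lie on chromosome 13, was lower in the B6-13D2 line than in the B6 line. Each genotype is 1 line, so the D2 segment cannot be told apart from other differences between these lines. Between B6-13D2 and B6, 2 of 26 regions were called, both at starts and both lower, against 13% of all regions (5.4% lower) and 9.95% of start-site regions (3.95% lower). All 11 tested start-site differences were negative, from -1.52 to -0.06, where the median of all start-site regions was -0.0172, and 5 had an unadjusted p under 0.05, against 21.8% of all start-site regions. Every B6-13D2 library was below every B6 library in 6 of the 11, which held for 16.2% of all start-site regions. Which line carried a region past the filter on low counts was followed only for called regions. Regions of few counts, such as Slc25a31, can pass through the line where they are high, so these tallies are no support for a direction. Mael had 2.58, 3.08 and 2.53 CPM in B6 and 0.803, 1.24 and 0.755 CPM in B6-13D2, a change of -1.52 (SE 0.33, adjusted p = 0.00105, edgeR). The second Sycp3 region had 2.11, 2.29 and 1.89 CPM in B6-13D2, against at least 3.7 CPM in every B6 library, a change of -0.87 (SE 0.27, adjusted p = 0.0226, edgeR). The libraries were separate at both genes. Dazl had 2.81, 3.43 and 2.74 CPM in B6-13D2 against 3.88 CPM and above in B6, a change of -0.60 (SE 0.24, adjusted p = 0.0939, edgeR), and the first Sycp3 region changed by -0.79 (adjusted p = 0.0959). Hormad1 had 5.22, 5.91 and 4.63 CPM in B6-13D2, overlapping B6, with -0.06 (adjusted p = 0.896, edgeR). Slc25a31 had 0.969, 0.617 and 0.806 CPM in B6 and 0.301, 0.286 and 0.283 CPM in B6-13D2, separate but few counts, with -1.43 (SE 0.63, adjusted p = 0.132, edgeR). The starts of Asz1, Ddx4, Tdrkh and Tex101 held between 0.0944 and 1.85 CPM in every library of the 4 lines, and their differences of -0.84, -0.52, -0.55 and -1.10 did not pass the test. The second Tex101 region did not pass the filter.

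The count of calls in this comparison depended on the libraries and the test. With all libraries as separate samples, or without D2-13B6 replicate 1, which enters only through the filter, the scaling and the shared spread estimate, 4 regions were called lower, Dazl and the first Sycp3 region added in the second case. Over all regions these settings called 25.2% and 15.7%. DESeq2 called 0, and 1 was called without B6 replicate 3, B6-13D2 replicate 2 or B6-13D2 replicate 3, against 5.22% of all regions under DESeq2 and 6.17%, 7.65% and 13% in the other settings. The first 2 of these leave the line with 1 summed sample, which is then assumed to vary like the other lines. As gene sums, 2 of 10 genes were lower, Mael (-0.94, adjusted p = 0.0355, edgeR) and Sycp3 (-0.77, adjusted p = 0.0191), against 23.7% of gene sums. Of the other germline genes, 0 of 43 regions were higher and 5 lower: Sycp1 (-1.81), Brdt (-1.25), Sohlh2 (-1.11), Stra8 (-0.91) and Hormad2 (-0.57). Beside these, 4 of 6 regions of primordial germ cell markers were higher, with a median of 0.605, 1 of 5 of fibroblast markers, with a median of 0.746, 2 of 5 of neural markers (median 0.0713) and 1 of 13 of ES cell markers (median 0.125), while 1 of 5 of primitive endoderm markers (median -0.406) and 1 of 4 of mesoderm markers (median -0.436) were lower. H3K27ac summed over the primordial germ cell list was 52.3 to 56.5 CPM in B6 and 83.2 to 90.4 CPM in B6-13D2, over the fibroblast list 9.9 to 12.1 and 19 to 22.6 CPM, and over the neural list 23.7 to 26.4 and 35.2 to 38.5 CPM. It was 1170 to 1280 and 1350 to 1460 CPM over the ES cell list and 9.78 to 14.3 and 7.53 to 12.2 CPM over the mesoderm list. Over the primitive endoderm list it was 14.2 to 15.5 CPM in B6-13D2 and at least 16.5 CPM in every B6 library, and no region of these lists was at 0. Their part in the result was not tested. The values share the B6 libraries with the difference between D2 and B6.

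On the D2 background, the test of D2 against D2-13B6 called 0 of 26 regions, against 6.67% of all regions and 4.03% of start-site regions (edgeR); 0 start-site regions had an unadjusted p under 0.05, against 13.8% of all start-site regions, and DESeq2 called 0. Of the 11 start-site differences 8 were positive and 3 negative, and in 3 every D2 library was above every D2-13B6 library, against 15.3% of all start-site regions. Mael had 1.18, 0.957 and 1.38 CPM in D2 and 0.711, 0.451 and 0.958 CPM in D2-13B6, which just overlapped, with a difference of 0.67 (SE 0.42, adjusted p = 0.453, edgeR). The second Sycp3 region had 0.61, 0.338 and 0.319 CPM in D2-13B6, overlapping D2. Hormad1, at 9.75, 8.68 and 9.47 CPM in D2-13B6, overlapped D2 with -0.27 (adjusted p = 0.495, edgeR). Ddx4 had a difference of 1.30 (SE 0.68, adjusted p = 0.335, edgeR) while regions of chromosome 13 had a median of 0.181 and other chromosomes -0.00481, whose part in it was not tested. Replicate 1 of D2-13B6 was the low library at the Stk31 intron, 8.94 against 22 and 21.1 CPM, but the high one at the Stk31 start, 4.67 against 2.48 and 2.87 CPM. Without it, when D2-13B6 has 1 summed sample assumed to vary like the other lines, again 0 start-site regions were called. Of the other germline genes, 0 of 43 were higher and 4 lower: Hormad2 (-1.55), Tex19.1 (-0.84), Tdrd12 (-0.83) and Tex14 (-0.45).

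The test of whether the effect of the segment on H3K27ac differed between the backgrounds passed at Mael. With 1 line per genotype, the segment cannot be told apart from other differences between the lines. By edgeR the interaction was called at 1 of 26 regions, a share below the 5.3% of all regions (1.37% lower) and 4.06% of start-site regions (1.44% lower). DESeq2 called 0, with -2.06 and no adjusted p at Mael. At Mael it was -2.19 (SE 0.54, adjusted p = 0.00871, edgeR), the lower level with D2 alleles on the B6 background (-1.52) set against 0.67 on the D2 background. Of the 11 start-site values 10 were negative and 6 had an unadjusted p under 0.05, against 15.9% of all start-site regions, whose median was -0.0104. Since regions of few counts can pass the filter through the line where they are high, the tally of signs is no support for a direction. Without D2-13B6 replicate 1, which leaves that line with 1 summed sample assumed to vary like the other lines, 4 start-site regions were called, against 9.91% of all regions: Mael (-2.17), both Sycp3 regions (-2.23 and -2.05) and Stk31 (-1.14). As a gene sum Sycp3 passed the test at -1.48 (SE 0.37, adjusted p = 0.0113, edgeR), against 16.1% of gene sums. Of the other germline genes, Sycp1 (-2.03) and Dpep3 (-1.75) were lower and Tdrd12 (1.12) was higher. Beside these, the interaction was called higher at 3 of 6 regions of primordial germ cell markers (median 0.821), 1 of 5 of fibroblast markers (median 0.472) and 1 of 5 of neural markers (median 0.116), and at none of the other 3 marker lists. Over the primordial germ cell list H3K27ac summed to 58.6 to 65.1 CPM in D2 and 62 to 66.3 CPM in D2-13B6, over the fibroblast list to 27.3 to 32.4 and 13.7 to 30 CPM, and over the neural list to 21.5 to 24 and 17.2 to 25.6 CPM. Their part in the result was not tested.

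To find genes whose pattern is most like that of the germline genes, levels of both marks in the 12 groups were compared for 14109 genes. Likeness was the Euclidean distance of log2(mean CPM per kb + 1) to the median profile of the 5 genes with a start-site region in every table (Dazl, Mael, Sycp3, Stk31 and Hormad1). These 5 lay at distances of 0.516 (Dazl) to 2.04 (Hormad1). The nearest others were Gpc2 and Stag3 (0.581 each, as they share the same region), Gm47955 (0.915), Piwil2 (0.972) and Sec1 (1.1). Stag3, a meiotic cohesin subunit, and Piwil2, a piRNA-binding protein, are on the list of other germline genes. The groups share lines and the 2 marks differ in depth, so these distances are a description.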

How the data were processed

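Counts per region were used as the authors deposited them, with duplicates removed per the file headers. Per the submitters' processing notes the tools were Trimmomatic 0.39, HISAT2 2.2.1, MACS 1.4.2, bedtools 2.9.2 and edgeR, with genome build mm10. Region starts were read as counted from 0. A total of 2 columns of per-sample values that match no sample were not used. The 10 genes and the gene lists were chosen with earlier results of these data known. All 10 genes are named, with their start-site regions and called regions, and from the other germline list at most 5 called regions of largest change per comparison.

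The test for every region was the quasi-likelihood F-test of edgeR 4.0.16 (R 4.3.3), with TMM scaling, filterByExpr (minimum count 10, minimum total 15), two-sided p adjusted by Benjamini-Hochberg over all regions of a table, and called under 0.05. Pairs within sampling noise (over regions with at least 40 counts) were summed. The fit was also run on simulated counts with known changes, and its outcome there is not given here as support. Alternatives were DESeq2 1.42.0, other scalings and filters, gene sums, a replicate block, libraries kept separate and each library left out; scaling over start-site regions, counts thinned to the lowest library total and CPM over the total of all regions were chosen after seeing the data. CPM used the total of regions that passed the filter times the TMM factor. Regions of few counts are limited by counting error.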

Additional observations from a re-analysis of the deposited data

Results flagged for a closer look

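The effect of the chromosome 13 segment on H3K27ac differed between the B6 and the D2 background, by a test of the difference itself, at the Mael start-site region (-2.19 on the log2 scale, SE 0.54, adjusted p = 0.00871, edgeR with Benjamini-Hochberg adjustment) and in the gene sum of Sycp3 (-1.48, SE 0.37, adjusted p = 0.0113, edgeR). By edgeR the interaction was called at 5.3% of all regions and 16.1% of gene sums, and DESeq2 called 0 of the germline regions. Both values compare 4 lines, 1 per genotype, with n = 2 samples each, so the segment cannot be told apart from other differences between the lines. No group had the 4 or more samples that a test for an outlying sample needs.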

How the results depend on the processing

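Limits of depth were largest in H3K9me3, where most regions away from starts held few counts. The alternatives moved these counts of called germline regions (start-site regions, gene sums). H3K9me3, separate lines (10, 9, 6): counts per gene gave 6, DESeq2 4 (4, 2), no filter 6, and TMM over start-site regions 6 (5, 3). H3K9me3, repeated, D2 minus B6 (1, 1, 0): counts per gene, DESeq2, no filter and TMM over start-site regions gave 0. H3K27ac, repeated, B6-13D2 minus B6 (2, 2, 2): DESeq2 gave 0 (0, 0), and the replicate block and separate libraries 4 (4, 4). D2 minus D2-13B6 (0): the block gave 1 (0, 1) and separate libraries 1. D2 minus B6 (9, 5, 4): counts per gene gave 4, DESeq2 3 (1), and a floor of 20 mean counts 3 start-site regions. Interaction (1, 1, 1): library totals gave 2 (2), DESeq2 0 (0), the block 3 (3, 2) and separate libraries 4 (4, 3). In repeated H3K27ac the block was fitted with all libraries kept separate, so it differs from the main fit in both respects. The share of all regions called moved with the setting too, so these counts alone are no result about the germline genes. An extension of 10 kb gave 14 regions in place of 8 in the separate-line H3K27ac list. The mean over libraries of the median H3K9me3 level of the 12 start-site regions, 21.3 and 18.9 CPM per kb, became 13 and 13.1 with the totals of all regions, which count more reads.

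Leaving out 1 library gave ranges; where a line then has 1 sample, it is assumed to vary like the others. H3K9me3, separate lines, 4 to 10 regions, 3 to 9 start-site regions and 2 to 7 gene sums (2 gene sums without B6 replicate 2 or 3 or D2 replicate 3, and 3 without D2 replicate 2); repeated, D2 minus D2-13B6, 0 to 1 and D2 minus B6, 0 to 1. H3K27ac, B6-13D2 minus B6, 1 to 4 in each of the 3 counts (gene sums 1 without B6 replicate 2 or 3 or B6-13D2 replicate 1 or 3, and 4 without D2-13B6 replicate 1); D2 minus B6, 3 to 5 start-site regions; interaction, 1 to 4 regions and 1 to 3 gene sums (2 without B6 replicate 3 or B6-13D2 replicate 2, and 3 without D2-13B6 replicate 1).

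Signs were followed for the differences, D2 minus B6, and for called congenic and interaction values, and those that turned were uncalled differences; uncalled congenic values were not followed in each setting. In repeated H3K9me3, Ddx4 became 0.00447 with library totals and 0.17 with a floor of 20 mean counts, Tex101 -0.0851 and Sycp3 -0.00504 with no filter, and with TMM over start-site regions Tdrkh was -0.0596, Tex101 -0.19 and Sycp3 -0.11. With that scaling H3K27ac of Stk31 was -0.10 in separate lines and -0.12 in repeated libraries. With 1 library left out, H3K9me3 in repeated libraries ran from -0.00814 to 0.45 at Mael, -0.0932 to 0.28 at Tdrkh, -0.28 to 0.21 at Tex101, -0.11 to 0.21 and -0.17 to 0.65 at Sycp3 and -0.50 to 0.19 at Ddx4; H3K27ac ran from -0.0131 to 0.14 at Stk31 and -0.36 to 0.0404 at Dazl in separate lines and -0.15 to 0.12 at Ddx4 in repeated ones. The cause was not tested. Same-numbered samples had correlations of deviations from -0.0568 to 0.164, so the numbers were not taken to pair samples. The block moved no other count by over 1.5 times, but in H3K9me3 of separate lines the Tex101 region off the start (0.57, adjusted p = 0.0589, edgeR) and the gene sums of Tex101 and Slc25a31 lost their call.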
